A study of Arabidopsis thaliana with 6 samples.

Results

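Fes1A, Hop2, Hop3, BOB1, AT5G48570 and DER2.2 are 6 nuclear genes of Arabidopsis thaliana that help proteins fold or that clear misfolded ones. They were chosen by name, through Affymetrix probe sets that pair with exactly 1 gene in the platform annotation. Each of the 6 genes had 1 such probe set, out of 13350 genes with a probe set of their own, and all 6 were bright enough to be tested, since the test left out the dimmest 40% of probe sets. They had been proposed with earlier results of these data known.

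The study set root cells that had been protoplasted and passed through a fluorescence-activated cell sorter beside intact roots, in order to see what that handling does to transcript levels. Protoplasting strips the walls with enzymes, so that single cells float free. Here every cell that went through the sorter was collected, with no gate for a cell type. The 6 samples were whole roots (3 arrays) and sorted root cells (3 arrays) of ecotype Columbia, from seedlings 6 days after germination, 1 array per sample. Both groups shared the same treatment: seedlings were grown on standard Murashige and Skoog medium with Fe(III)-EDTA, and their roots then spent 24 hours on medium in which 0.3 mM ferrozine, an iron chelator, replaced the ferrous sulfate. Iron-sufficient roots were not analysed here, so no value below speaks of the response to iron. Nothing in the labels states that replicates were separate cultures, so p-values reflect the spread among these arrays, part of which may be technical.

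In plant cells, HSP70 and HSP90 are the main cytosolic chaperones that hold unfolded proteins and help them reach their final shape. Cochaperones set their pace: exchange factors reset HSP70, Hop proteins bridge HSP70 and HSP90, and immunophilins and p23-type proteins join HSP90. Heat and other stresses induce many of these genes through heat shock factors. In the endoplasmic reticulum a separate set of chaperones folds secreted proteins, and derlins belong to the machinery that sends the misfolded ones back to the cytosol for breakdown.

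The 6 genes did not move as one group. Fes1A and AT5G48570 were higher in sorted cells, by 2.16-fold and 1.84-fold, and DER2.2 and Hop3 were lower, by 3.47-fold and 1.75-fold. Hop2 and BOB1 did not pass the test. Levels are MAS5 signal intensities, a linear scale without a unit, and differences are log2 values of sorted cells minus whole roots. A gene was called where the limma adjusted p over 13647 tested probe sets was under 0.05. On that rule 24.7% of all tested probe sets were higher and 30.7% lower in sorted cells, or 55.4% in all, and the 4 calls among 6 genes have to be read against that background. The groups did not overlap for 4 of the 6 genes, against 65.2% of the tested probe sets (28.8% higher and 36.5% lower in sorted cells). The median log2 difference was -0.047 over the 6 genes and -0.16 over all tested probe sets.

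**Figure D1:**
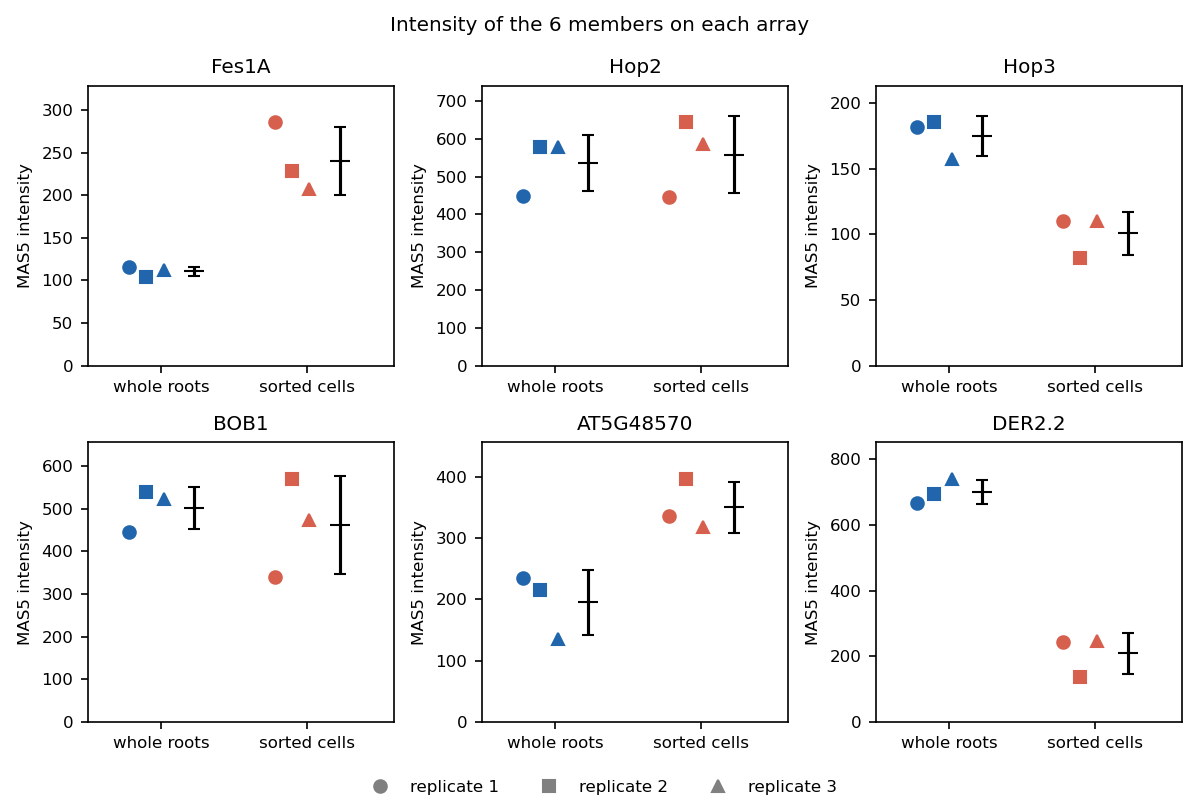
MAS5 intensity (vertical axis, linear, from 0) of each of the 6 genes on the 3 whole-root arrays (blue) and the 3 sorted-cell arrays (red); the symbol gives the replicate and the black bar the mean with its SD. Fes1A and AT5G48570 lie higher and Hop3 and DER2.2 lower in sorted cells without overlap, whereas the groups of Hop2 and BOB1 overlap.

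Fes1A (AT3G09350) codes for a relative of the yeast HSP70 exchange factor Fes1 and is known in Arabidopsis as a heat tolerance gene. Its intensity was 115.7, 104.3 and 111.8 in whole roots and 285.5, 228.1 and 207.7 in sorted cells (replicates 1 to 3). All sorted-cell arrays lay above all whole-root arrays, and the whole-root values were close together, with a log2 SD of 0.076 against 0.24 in sorted cells. The means were 110.6 ± 5.80 and 240.4 ± 40.3 (SD, n = 3 each). The log2 difference was 1.11 (SE 0.20, 95% interval 0.65 to 1.57; limma adjusted p = 0.00174), and 16.7% of tested probe sets rose further. Its call held under all 16 alternative settings.

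The 2 other Fes1 genes gave a mixed picture. Fes1C had intensities of 77.6, 92.2 and 116.7 in whole roots and 93.3, 104.6 and 94.2 in sorted cells, and its groups overlapped (log2 difference 0.046, SE 0.24; limma adjusted p = 0.883). Fes1B was too dim to be tested. It went from 15.4, 16.6 and 18.5 to 61.8, 28.4 and 36.5, without overlap but with 2 of 3 arrays of each group above the background level, which is the highest reading among 27 bacterial control probe sets of the same array. The cytosolic HSP70 genes with a probe set of their own, Hsp70-2 and AT3G09440, stood at 0.12 and -0.10 on the log2 scale and were not called. In the list of HSP70 chaperones and exchange factors, 3 of 23 genes were tested and 0 passed by limma, with 0 at an unadjusted p under 0.05.

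Hop2 (AT1G62740) and Hop3 (AT4G12400) belong to a family of 3 scaffold proteins that carry clients from HSP70 to HSP90. In Arabidopsis Hop3 is also known for a part in the stress response of the endoplasmic reticulum. Hop3 read 182.0, 185.3 and 157.2 in whole roots and 110.0, 81.8 and 110.5 in sorted cells. Every sorted-cell array was below every whole-root array, with replicate 2 the lowest. Its means were 174.8 ± 15.4 and 100.8 ± 16.5 (SD, n = 3 each), its log2 difference was -0.80 (SE 0.22, 95% interval -1.29 to -0.32; limma adjusted p = 0.0117), and 27.3% of tested probe sets fell further. Without whole-root replicate 2 the call of Hop3 was lost (limma adjusted p = 0.0553; lowest in any setting 0.00692).

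Hop2 read 449.5, 577.7 and 577.5 in whole roots and 445.6, 643.2 and 585.4 in sorted cells, so the groups overlapped and replicate 1 was the lowest array of each. Its means were 534.9 ± 73.9 and 558.1 ± 101.6 (SD, n = 3 each). The log2 difference was 0.054 (SE 0.22; limma adjusted p = 0.848), and its 95% interval of -0.45 to 0.55 allows a change of up to 1.47-fold upwards or 1.36-fold downwards. Hop1, which was named in the HSP90 list and is no member, read 530.3, 412.1 and 447.2 in whole roots and 191.3, 540.5 and 373.5 in sorted cells. Its log2 difference of -0.45 (SE 0.35; limma adjusted p = 0.297) was not called. Sorted-cell replicate 1 lay far below the other two there, and without it Hop1 stood at -0.036.

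The difference between Hop3 and Hop2 was also taken within each array, where the scaling of an array cancels. Log2 of Hop3 minus log2 of Hop2 was -1.30, -1.64 and -1.88 in whole roots and -2.02, -2.98 and -2.41 in sorted cells. All sorted-cell arrays were lower than all whole-root arrays. The shift was -0.86, from -1.61 ± 0.288 to -2.47 ± 0.482 (SD, n = 3 each; two-sided exact permutation p = 0.1, and 3 against 3 can give no smaller one). That Hop3 fell relative to Hop2 is thus a description of these arrays, in a design that cannot reach 0.05 for a single value. The background level of an array does not cancel in this way, and its part was not tested.

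AT5G48570 (synonyms ROF2 and FKBP65) codes for a heat-induced peptidyl-prolyl isomerase of the FK506-binding type, an immunophilin that binds HSP90. It read 234.7, 215.0 and 134.8 in whole roots and 335.2, 396.6 and 317.4 in sorted cells. The groups did not overlap, and whole-root replicate 3 was far below the other whole-root arrays. The means were 194.8 ± 52.9 and 349.7 ± 41.5 (SD, n = 3 each), and the 95% interval of the log2 difference of 0.88 (SE 0.25; limma adjusted p = 0.0149) ran from 0.32 to 1.44. It was the only one of the 6 genes for which the log2 SD was larger among whole roots (0.43) than among sorted cells (0.17). Without whole-root replicate 3 it stood at 0.63 and was not called (limma adjusted p = 0.0685; lowest in any setting 0.00738).

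BOB1 (AT5G53400) codes for a NudC-domain protein with chaperone activity that Arabidopsis needs for development and heat tolerance. Its intensity was 444.8, 537.8 and 522.0 in whole roots and 340.7, 569.9 and 473.1 in sorted cells. The groups overlapped, and the sorted-cell arrays spanned the whole-root range, with replicate 1 below and replicate 2 above it. From means of 501.5 ± 49.8 and 461.2 ± 115.0 (SD, n = 3 each) the log2 difference was -0.15 (SE 0.23, 95% interval -0.68 to 0.38; limma adjusted p = 0.613), which allows a change of up to 1.30-fold upwards or 1.60-fold downwards. Its relative AT5G58740 behaved otherwise: it went from 484.1, 581.7 and 526.6 to 1409, 1044 and 971.4 and rose by 1.09 on the log2 scale (SE 0.21; limma adjusted p = 0.00246). The closer relative AT4G27890 was too dim to be tested, at 20.3, 22.6 and 26.4 in whole roots and 97.2, 18.5 and 34.7 in sorted cells. The tables used here name these relatives by locus only, and their place in the family is taken from general knowledge, as is that of other genes given by locus.

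Around these HSP90 helpers, 6 of 20 listed HSP90 chaperone and cochaperone genes were tested. Of these, 2 rose, AT5G58740 and SQN (a cyclophilin of the HSP90 complex), 1 fell, SGT1A (an HSP90 partner in immunity), and 3 missed the threshold (median 0.26). These 3 calls of 6 lie near the background of 55.4%. SQN read 49.0, 79.5 and 73.3 in whole roots and 129.8, 108.2 and 165.6 in sorted cells, a log2 difference of 1.01 (SE 0.28; limma adjusted p = 0.0144). SGT1A went from 85.1, 176.0 and 157.5 to 70.9, 88.8 and 35.2, with overlapping groups (-1.14, SE 0.41; limma adjusted p = 0.0398). Calls were lost in 2 of 15 alternative settings for SQN (limma adjusted p up to 0.0565, from 0.00454) and in 4 of 15 for SGT1A (up to 0.144, from 0.00206). The p23-type locus AT4G02450 stood at 0.43 and AT3G12050, of the Aha1 type, at 0.086. The HSP90 genes themselves were not analysed here.

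Small heat shock proteins, which bind unfolding proteins without using ATP and are scarce in unstressed roots, were mostly near background. Of 18 listed genes of this kind and of the HSP100 type, 8 had a probe set and 1 was bright enough to be tested. That gene, AT1G54050, read 13.4, 25.1 and 28.9 in whole roots, with 2 of 3 arrays above the background level, and 203.8, 184.4 and 104.9 in sorted cells. The lowest mean intensity of any tested probe set was 53.9, and AT1G54050 passed that filter only through its sorted-cell values. Its values are therefore a description, and its test is not given. AT2G29500 and AT1G53540 were left out as dim, and their sorted-cell arrays lay above their whole-root arrays, as did those of 21.9% of all 9099 dim probe sets. The background level itself was 16.8, 11.8 and 10.4 in whole roots and 57.4, 36.3 and 14.3 in sorted cells, in the same order of replicates as these 2 genes among the sorted cells, and its part in their values was not tested. AT4G21870 went the other way, from 24.1, 27.2 and 23.9 to 9.92, 4.55 and 11.3, where no sorted-cell array was above background. In the list of heat shock factors and other heat-induced genes only HSA32, a gene of lasting heat tolerance, was tested of 27, and it stood at -0.15 (SE 0.38; limma adjusted p = 0.749). Heat shock factors, the HSP90 genes and HSP101 were thus not analysed here, and the 6 genes cannot be set beside the core of the heat response.

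DER2.2 (AT4G04860) codes for a derlin, a membrane protein of the endoplasmic reticulum that serves the removal of misfolded proteins, and it had the largest change of the 6 genes. Whole roots read 666.7, 694.3 and 741.0, and sorted cells 243.3, 136.8 and 247.2. The groups were far apart, and sorted-cell replicate 2 was the lowest array. The means were 700.6 ± 37.6 and 209.1 ± 62.7 (SD, n = 3 each), the log2 difference was -1.79 (SE 0.26, 95% interval -2.38 to -1.21; limma adjusted p = 0.000477), and 8.05% of tested probe sets fell further. Under the 16 alternative settings it ran from -1.94 to -1.51 and kept its call in each. Whole-root values were again tight, with a log2 SD of 0.077 against 0.49 in sorted cells. The medians over all tested probe sets were 0.18 and 0.37.

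Its relatives fell as well. DER2.1 went from 816.1, 1222 and 1415 to 454.9, 405.8 and 542.2 (log2 difference -1.27, SE 0.25; limma adjusted p = 0.00249). DER1 went from 1009, 888.8 and 919.9 to 312.9, 624.9 and 593.2 (-0.94, SE 0.28; limma adjusted p = 0.0181). For each of the 3 derlins the groups did not overlap and the call was for lower levels, where 30.7% of tested probe sets were called lower. DER1 stands here by its brightest probe set. Its second one was too dim to be tested, with means of 2.08 in whole roots and 4.38 in sorted cells. There the groups overlapped and 0 arrays were above background. DER1 was no longer called when whole-root replicate 1 was left out (limma adjusted p = 0.0639) or replicate 3 (0.0527; lowest in any setting 0.00678). DER2.1 and DER2.2 are close relatives, and signal shared between their probe sets cannot be told apart from signal of their own.

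**Figure D2:**
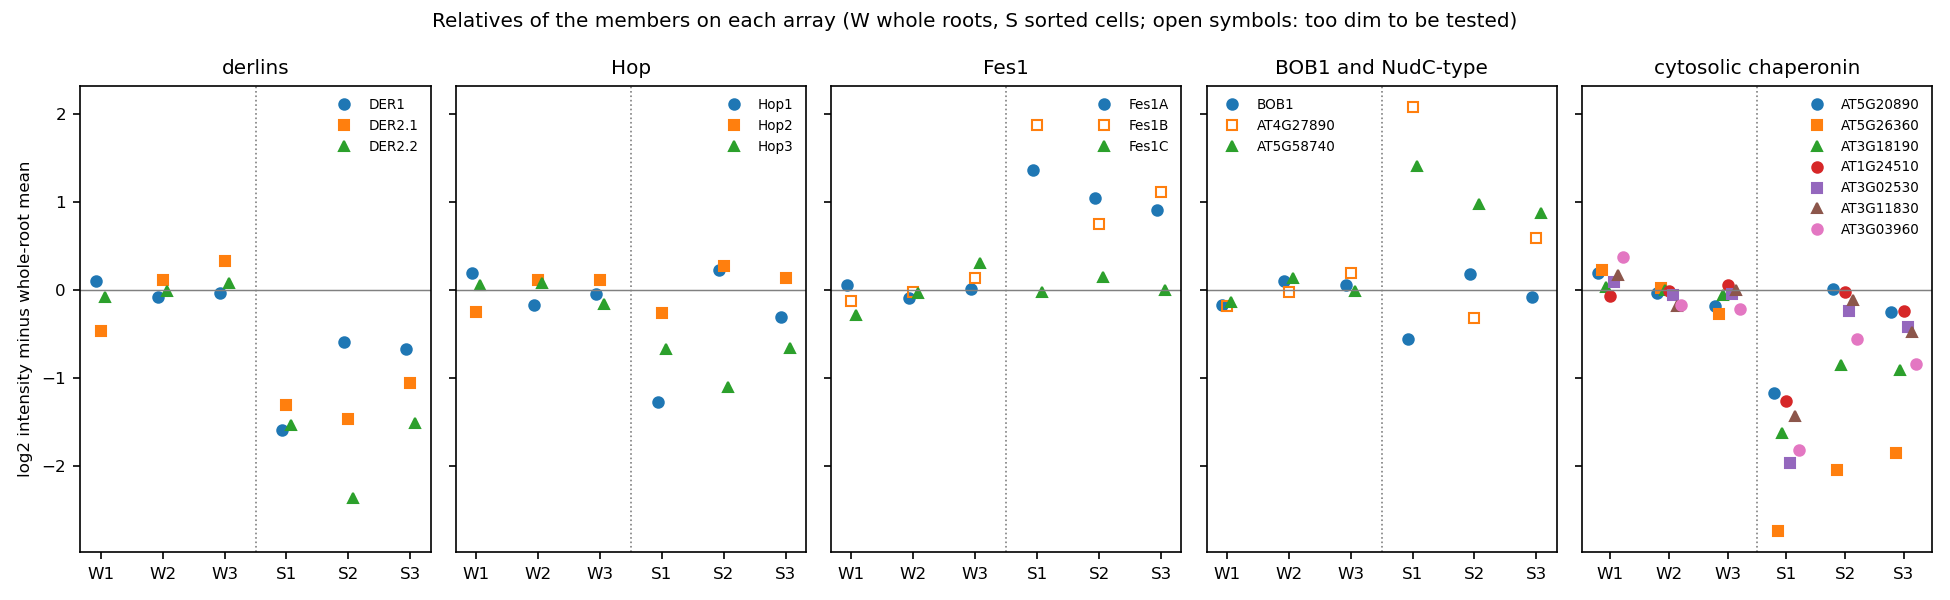
Log2 intensity minus the mean of the whole-root arrays (vertical axis) on each array (horizontal axis; W1 to W3 whole roots, S1 to S3 sorted cells) for the derlins, the Hop, Fes1 and BOB1 relatives and 7 loci of the cytosolic chaperonin; open symbols are genes too dim to be tested. The 3 derlins lie below 0 on every sorted-cell array, Hop3 falls while Hop2 stays near 0, and the 7 chaperonin loci are lowest on sorted-cell replicate 1.

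Other genes of the endoplasmic reticulum did not follow the derlins in one direction. Of 28 listed genes, which include DER1 and DER2.1, 10 were tested. Of these, 2 rose, 4 fell and 4 missed the threshold, shares not far from the 24.7% and 30.7% of all tested probe sets. Both derlins are among the 4 that fell and are part of the median of 0.15. Besides the other two derlins, BZIP28, a membrane-bound transcription factor of the unfolded protein response, fell by 0.98 on the log2 scale (SE 0.22; limma adjusted p = 0.00491), and UBC32, a ubiquitin-conjugating enzyme of the same disposal route as the derlins, fell by 0.60 (SE 0.18; limma adjusted p = 0.0194). The lectin chaperone gene CRT1b rose, from 1894, 1617 and 1574 to 1998, 3769 and 4243 (0.91, SE 0.29; limma adjusted p = 0.0235), and the locus AT4G29960 rose by 0.77 (SE 0.23; limma adjusted p = 0.0183). BZIP60, another transcription factor of that response, stood at 0.32, OS9, a lectin of the disposal route, at -0.023, and the calnexin-type locus AT5G07340 at 0.59.

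Several of these outcomes changed with the arrays kept or with the setting. ATERDJ3B, an HSP40-type helper of the lumen, read 1284, 1345 and 1307 in whole roots and 1383, 2845 and 2509 in sorted cells, and just missed the threshold (0.71, SE 0.27; limma adjusted p = 0.0522). Without sorted-cell replicate 1 it was called at 1.03, and so was AT5G07340 at 0.85 (limma adjusted p = 0.000433 and 0.0127, over ranges of 0.000433 to 0.148 and 0.0127 to 0.314). Replicate 1 was the lowest sorted-cell array for 7 of the 10 tested genes of this list, against 38.7% of all tested probe sets. The call of CRT1b was lost in 6 of 16 settings (limma adjusted p up to 0.084, from 0.000184), that of UBC32 in 5 (up to 0.0827, from 0.0139) and that of AT4G29960 in 3 (up to 0.0685, from 0.00136). BZIP28 and DER2.1 kept their calls in all 16.

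The list of other folding machines came down to the cytosolic chaperonin, a ring-shaped complex that folds actin and tubulin: 7 of its 8 listed loci were tested, and they were the only tested genes of that list of 20. Of these, 3 fell (42.9%, against 30.7% of all tested probe sets) and 4 missed the threshold (median -0.87). AT5G26360 went from 2667, 2321 and 1891 to 340.7, 553.2 and 633.0 (-2.21, SE 0.27; limma adjusted p = 0.000198), and AT3G18190 and AT3G03960 fell by 1.12 and 1.06 on the log2 scale. The other 4 loci stood between -0.87 and -0.46, and with quantile normalization AT5G20890, AT1G24510 and AT3G02530 of these were called lower too (limma adjusted p = 0.0187, 0.0229 and 0.0457). All 7 were lowest on replicate 1 among the sorted cells. Without that array the median was -0.33, and 3 loci were still called lower. AT3G03960 was no longer called without whole-root replicate 1 (limma adjusted p = 0.0915; lowest in any setting 0.0107).

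Over all 6 lists of folding genes, 37 of 136 had a probe set of their own and 28 were tested. AT1G54050, which passed the filter only through its sorted-cell values, is left out of the shares that follow. Of the other 27, 4 rose (14.8%) and 8 fell (29.6%), with a median of -0.15. Over all tested probe sets these values were 24.7%, 30.7% and -0.16. With AT1G54050 counted, the number called went from 13 to 8 without whole-root replicate 1 and to 8 without whole-root replicate 3. These shares are near the background of the whole comparison.

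**Figure D3:**
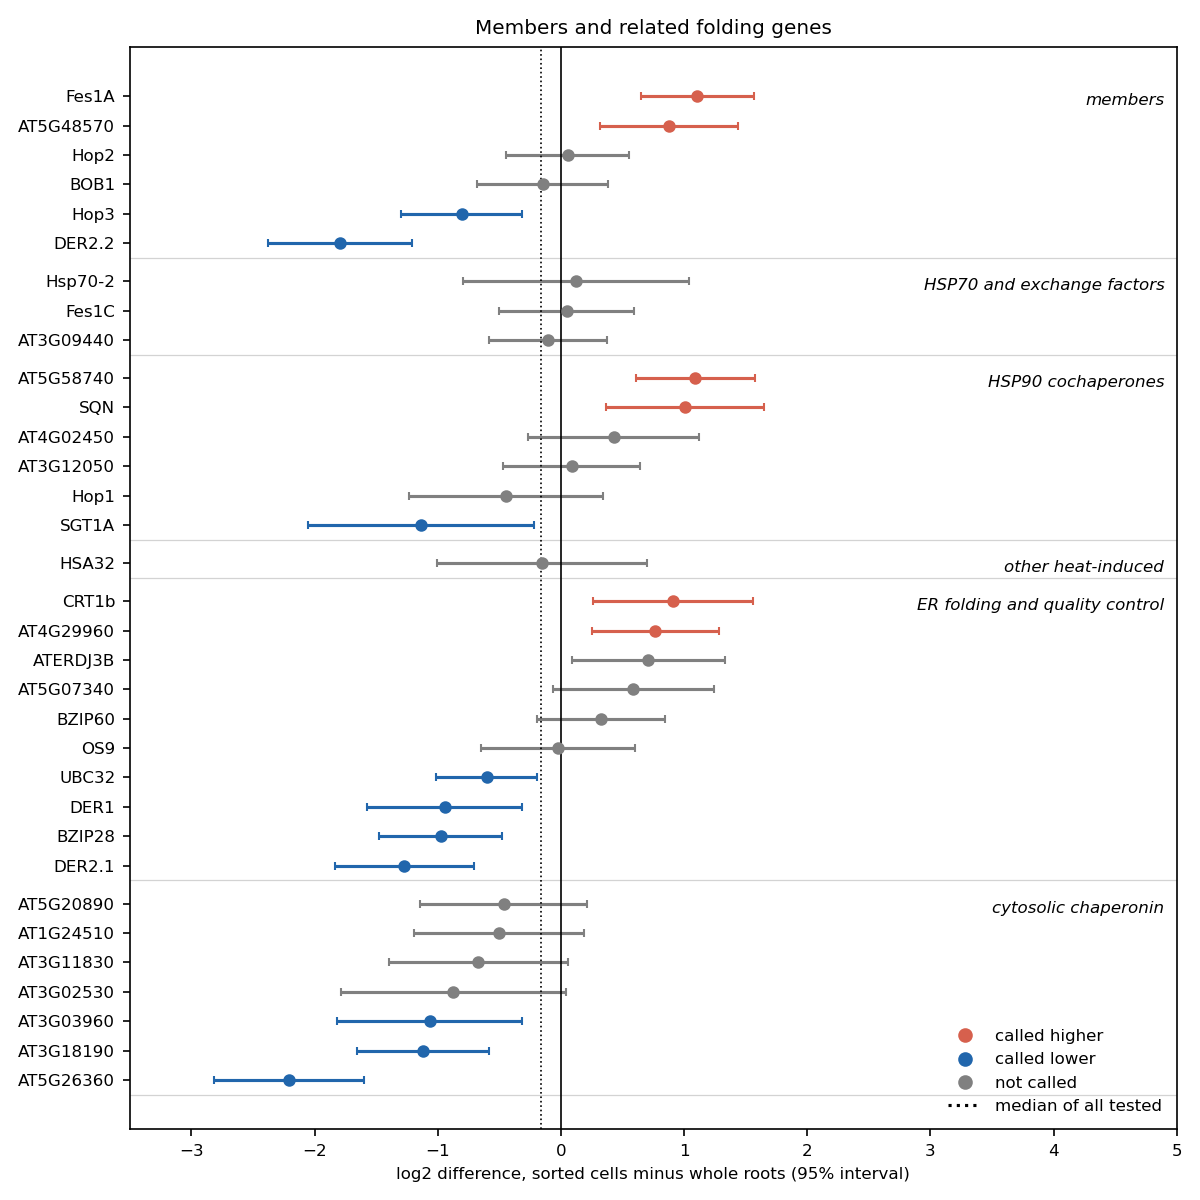
Log2 difference of sorted cells minus whole roots (horizontal axis) with its 95% interval for the 6 genes and 27 tested genes of the lists of folding genes (AT1G54050 is left out), with red for calls higher, blue for calls lower and grey for no call; the dotted line is the median of all tested probe sets at -0.16. Fes1A, AT5G48570, AT5G58740 and SQN stand to the right, and the derlins, Hop3 and the chaperonin loci to the left.

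The genes with the most similar profile over the 6 arrays were found by the root-mean-square difference of log2 values, each profile centred on its own mean, among 7340 tested probe sets of other genes. For Fes1A these were AT5G11680 (0.039) and AT2G46540 (0.059). For Hop3 they were AT1G60995 and AT5G63930 (0.081 each), and for DER2.2 AT5G05140 (0.067) and AT4G31450 (0.10). Hop2 was nearest to AT5G51140 (0.073) and AT4G27680 (0.080), BOB1 to AT5G41800 (0.064) and AT2G01060 (0.075), and AT5G48570 to AT3G19650 (0.11) and AT1G73350 (0.14). With 6 arrays in 2 groups, such likeness is a description of these libraries. AT5G11680 illustrates it, with 304.6, 265.2 and 298.8 in whole roots and 703.1, 591.5 and 547.0 in sorted cells: like Fes1A it was highest on sorted-cell replicate 1 and lowest on whole-root replicate 2. None of the 12 genes belongs to the lists of folding genes. Those lists hold only 28 tested genes beside the 7340 candidates, so this outcome says little.

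The arrays of a group differed in ways that touch these values. Across tested probe sets Pearson's r was 0.966 to 0.974 among whole-root arrays, 0.876 to 0.948 among sorted-cell arrays and 0.514 to 0.666 between the groups. The log2 difference between 3′ and 5′ control probe sets of GAPDH was 0.67 to 0.91 in whole roots and 2.44 to 5.12 in sorted cells, and that of an actin pair was 1.60 to 1.85 and 3.37 to 5.53, with sorted-cell replicate 1 highest for each. In another actin pair it was 4.81 to 5.73 and 4.85 to 5.35. Of 17 listed markers of root cell types and green tissue, 8 were tested. Of these, 7 fell (87.5%, against 30.7% of all tested probe sets). They included the root hair expansin genes EXPA7 and EXPA18 and the green tissue genes RCA and LHCB4.1. Sorted-cell means of JKD, AT1G09750 and RCA were 27.1, 29.9 and 45.1, below 53.9, the lowest mean of any tested probe set. These genes passed the filter only through their whole-root values. Their falls are therefore a description, and the share of 87.5% counts them. The root cap gene AT1G65570 rose. The summed intensity of all 8 markers was 4289 to 4772 in whole roots and 3943 to 7781 in sorted cells. AT1G65570 made up most of it in sorted cells. Without that gene the sums were 4066 to 4574 and 831.4 to 905.4, and their lowest single readings were 101.5 among whole roots and 2.06 among sorted cells (the ground tissue gene AT1G09750 on replicate 1). The part of RNA quality and of cell type makeup in the changes of the 6 genes was not tested. In such bulk samples fewer cells of a type and less RNA per cell cannot be told apart.

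**Figure D4:**
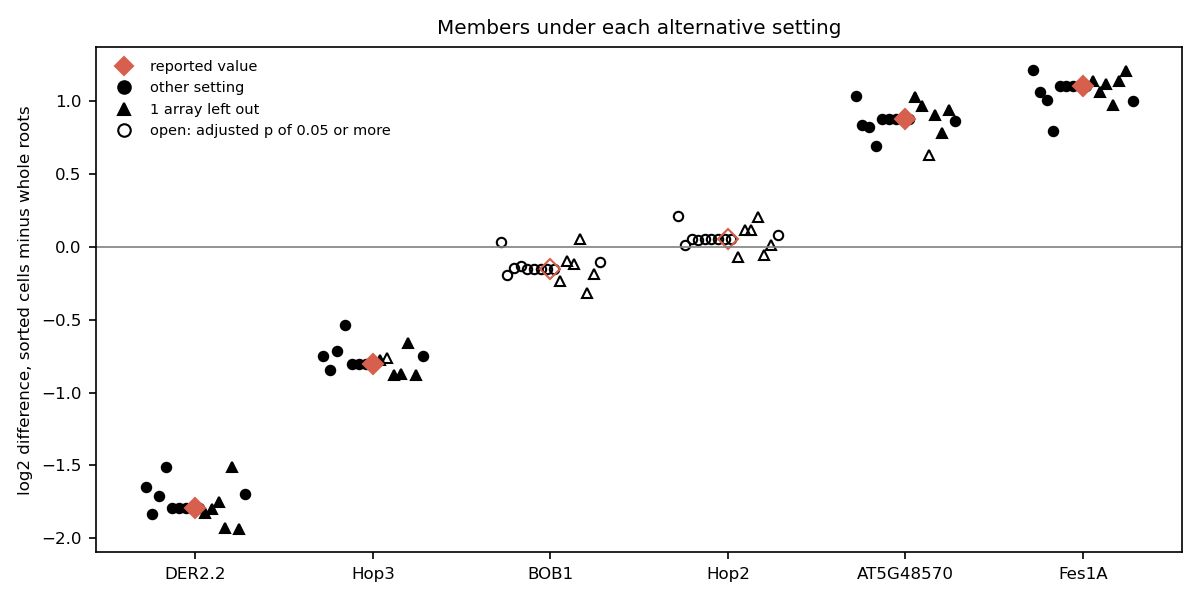
Log2 difference of sorted cells minus whole roots (vertical axis) of the 6 genes as reported (red diamonds), with 1 array left out (triangles) and under other settings (circles); open symbols did not pass the threshold. DER2.2 and Fes1A passed under every setting shown, Hop3 and AT5G48570 each missed once, and Hop2 and BOB1 stayed around 0. The 2-fold threshold is not shown, and Hop3 (1.75-fold) and AT5G48570 (1.84-fold) lay below it.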

How the data were processed

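RNA of 6 root samples was hybridised to Affymetrix arrays after column extraction and 2 amplification cycles, per the labels' protocols. The deposited intensities are linear MAS5 signals, per the submitters' processing notes, and were used as they are. Scaling target and detection calls: not given in the sources used here.

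The annotation of the platform gives 1 gene for 13513 of 22810 probe sets and several for 503. A further 64 are controls, and 8730 are unnamed here. For names only, 13436 of the former were matched to the RefSeq table of assembly TAIR10.1. Tests left out controls and, ranked by their mean on the 6 arrays, the dimmest 40% of all others.

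The remaining 13647 were tested as log2 intensities in limma 3.58.1 under R 4.3.3 (lmFit, eBayes with a trend), two-sided, with Benjamini-Hochberg adjustment over all of them. The code of the fit was run on simulated data with independent noise and few changed probe sets. Those settings differ from these data, so error rates here were not tested. Exact permutation tests used scipy 1.17.1 under Python 3.11.15, with pandas 2.3.3, numpy 2.4.6 and matplotlib 3.10.9. Where probe sets share a gene, the brightest stands for it. The second probe sets of DER1 and SQN had 0 arrays above the background level and were not tested. The number of arrays limits the precision.

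Named were the 6 genes, listed genes with a probe set of their own, and for each of the 6 the 2 nearest profiles. Members and lists were chosen with earlier results of these data known. Alternatives covered scaling (quantile, median), offsets (16, 64), other filters on dim probe sets, other variance models, a replicate block, each array left out, a 2-fold threshold and, chosen after seeing the data, array quality weights.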

Additional observations from a re-analysis of the deposited data

Results flagged for a closer look

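The small heat shock protein genes AT2G29500 and AT1G53540 were outside the tested probe sets because they are dim, yet all of their sorted-cell arrays lay above all whole-root arrays and above the background level. AT2G29500 read 33.1, 34.5 and 29.8 in whole roots and 106.8, 64.4 and 48.9 in sorted cells, with a sorted-cell mean of 73.4. AT1G53540 read 13.7, 18.2 and 9.82 in whole roots, where 1 of 3 arrays was above background, and 76.6, 52.5 and 30.2 in sorted cells, with a mean of 53.1. Of 9 listed folding genes left out as dim, 5 had higher values on all sorted-cell arrays, and these 2 were also above background on each of them. Over all 9099 dim probe sets those shares were 21.9% and 4.93%. The background level was 16.8, 11.8 and 10.4 in whole roots and 57.4, 36.3 and 14.3 in sorted cells. Its part in these values was not tested.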

How the results depend on the processing

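The 4 calls among the 6 genes kept their direction in every setting in which the gene was tested. Hop3 fell out of the test under the 60% filter on dim probe sets, and each of the 6 genes has a single probe set, so the planned exchange of probe sets was not run. With 1 array left out, Hop3 ran from -0.88 to -0.66 and AT5G48570 from 0.63 to 1.03, and each lost its call once, as given above. The 2-fold threshold was applied only to the count over all probe sets, where 5388 passed. Hop3, at 1.75-fold, and AT5G48570, at 1.84-fold, lay below it. BOB1 stood at 0.034 with quantile normalization and between -0.32 and 0.055 with 1 array left out, and Hop2 between -0.067 and 0.21 there; neither was called in any setting. The number of called listed genes, with AT1G54050 counted, ran from 8 to 15 with 1 array left out. Direction turned, without a call, with quantile normalization for AT3G12050 (-0.19), OS9 (0.14) and AT5G41800 (0.000037), and with array quality weights for Hsp70-2 (-0.30), AT3G09440 (0.033), Fes1C (-0.014), AT3G12050 (-0.15) and OS9 (0.25). With 1 array left out it turned for AT3G09440 (-0.19 to 0.059), Fes1C (-0.093 to 0.20), OS9 (-0.22 to 0.29), HSA32 (-0.46 to 0.094), Hsp70-2 (-0.31 to 0.55), AT5G41800 (-0.33 to 0.044) and AT3G12050 (-0.093 to 0.34). The cause was not tested. Under alternatives the listed and nearest genes gave 759 values, with AT1G54050 counted. Of these, 692 kept direction and side of the threshold, 38 lost a call, 9 gained one and 20 turned. The shift between Hop3 and Hop2 ran from -1.08 to -0.60 with 1 array left out. Across tested probe sets, the deviations of same-numbered arrays from their group means correlated at -0.29, -0.16 and -0.042. With 3 arrays in each group, these values cannot tell whether the numbers pair the samples, which the labels do not state. With the replicate block 4 of the 6 genes, 12 listed genes and 6815 probe sets were called, against 4, 13 and 7564 without it. The listed genes counted here include AT1G54050. Signal near background limits the values of the small heat shock genes.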
